A study of Mus musculus with 25 samples.

Results

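CD11c- interstitial macrophages labelled wild type (WT) from tumor-bearing lungs were compared between 2 kinds of mixed bone marrow chimera. The comparison takes 5 of the 25 RNA libraries of the series, the 2 WT CD11c- tumor libraries of the IL9R chimeras (label numbers 5 and 6) and the 3 of the ARG1 chimeras (17, 18 and 19), and all genes of the raw count table by their symbol. In the IL9R chimeras, B6/BoyJ hosts carried Il9r-/- marrow together with BoyJ WT marrow, and the libraries used here are labelled as the WT cells, sorted beside cells labelled Il9r knockout (KO). In the ARG1 chimeras the WT cells were sorted beside cells labelled ARG1 CKO, a conditional Arg1 knockout whose Cre driver is not given in the sources used here, nor is the strain of their WT donor. All 5 libraries come from lungs with B16 tumors, a mouse melanoma line, and the cells compared are labelled WT for receptor and enzyme alike, so that the genotype of the partner marrow and whatever else differs between the 2 sets of mice separates the groups and cannot be told apart. The Il9r reads go against these labels and are given with the first results. In this series, which was set up to find expression changes that depend on IL-9 signaling inside interstitial macrophages, the 2 WT groups serve as the within-chimera controls of 2 different knockouts.

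Interstitial macrophages lie in the lung tissue between airspace and vessel, in contrast to alveolar macrophages, and CD11c (encoded by Itgax) divides them into subsets. IL-9 is a cytokine whose receptor signals through JAK1, JAK3 and STAT proteins. Arginase 1 (Arg1) splits arginine into ornithine, the precursor of polyamines, and urea, and it is a known product of macrophages in tumors. In a mixed chimera WT and knockout cells share one host, so WT cells can still differ between chimera kinds through signals from the host, the tumor or the knockout partner cells.

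Each of the 5 libraries held 37442893 to 45761042 counts with 12113 to 13044 genes detected. The sources do not state whether each library stands for its own animal, and the p-values cover the spread among these samples, which may be technical. Levels are CPM, a gene's share of its library's counts after TMM scaling for composition and not per transcript length, and log2 fold changes are IL9R chimera over ARG1 chimera with their standard error (SE). The cells carried the labelled identity: Csf1r, the receptor for the macrophage growth factor CSF1, had 2367 and 1820 CPM in the IL9R chimera libraries, against 1429, 1561 and 1396 CPM in the ARG1 chimera libraries, Adgre1 (F4/80) 687.9 to 1084 CPM over the 5 libraries, and the alveolar macrophage gene Siglecf at most 1.21 CPM. The 23 tested genes of the alveolar macrophage list summed to 2632 and 1936 CPM in the IL9R libraries, against 1783 to 2956 CPM in the ARG1 libraries, with Il1rn and Lpl among the high ones, which are not specific to alveolar macrophages. The 2 IL9R chimera libraries differed from each other more than the ARG1 chimera libraries did. Across genes, log2 CPM of the IL9R pair correlated at r = 0.945, the 3 ARG1 pairs at 0.949 to 0.966, and pairs of 1 library of each kind at 0.937 to 0.962. IL9R chimera library 1 had 0.670% of its counts in ribosomal protein genes and library 2 had 1.23%, against 1.18% to 1.58% in the ARG1 chimera libraries, and values are therefore given for both libraries one by one.

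No gene passed an adjusted p of 0.05. Of 13434 genes tested with edgeR's quasi-likelihood test and Benjamini-Hochberg adjustment, 0 (0%) were called, and the smallest adjusted p was 0.118. At an unadjusted p under 0.05 there were 1201 genes (8.94%), 662 with a higher fitted level in IL9R chimeras (4.93%) and 539 with a lower one (4.01%). DESeq2 called 68 genes (0.517% of the 13162 with an adjusted p), 37 higher and 31 lower, and limma voom called 0. Both IL9R chimera libraries lay above all 3 ARG1 chimera libraries for 1816 genes (13.5%) and below all 3 for 1644 (12.2%). Without IL9R chimera library 2, edgeR called 67 genes, 29 higher and 38 lower, where the lone IL9R library is assumed to vary like the other groups, as in every value given without library 1 or 2. Of the 67, 16 were among the 68 of DESeq2 (23.9% and 23.5% of the 2 lists). Without library 1 it called 0, with 744 genes at an unadjusted p under 0.05.

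Arg1 (mm10, chr10:24915221-24927484) was abundant in both groups and overlapped between them. It had 3343 and 4472 CPM in WT cells of the IL9R chimeras, against 6181, 4485 and 3541 CPM in WT cells of the ARG1 chimeras. The log2 fold change was -0.28 (SE 0.58, edgeR adjusted p = 0.92), and an exact two-sided permutation test over the libraries gave p = 0.4 for a difference of -0.25 in mean log2 CPM, where 0.1 is the smallest p that 2 against 3 libraries allow. Il9r had no read in any of the 5 libraries, which allows up to 3 counts per library, so the transcript was not detectable at this depth. Every tumor library labelled Il9r KO held the transcript, with 562, 248 and 179 reads in CD11c- cells and 168, 110 and 83 in CD11c+ cells. All 10 tumor libraries labelled WT had 0 reads. Among tumor libraries labelled Arg1 CKO, CD11c+ library 1 had 61 reads, CD11c- library 3 had 5 and the others had none. Il9r reads therefore run against the WT and KO labels of the IL9R chimeras. Which part of Il9r the knockout allele lacks is not given in the sources used here, reads per gene do not show it, and groups are called by their labels throughout. Arg1 had 2738, 2246 and 1671 CPM in the CD11c- libraries labelled Arg1 CKO, below each of the 3 WT libraries of the same chimeras but far from absent. Itgax stayed low in these CD11c- cells, with 32.7 and 16.6 CPM in IL9R chimeras, against 17.2, 11.1 and 20.7 CPM in ARG1 chimeras (log2 fold change 0.60, SE 0.38, adjusted p = 0.64, edgeR). Ptprc, the gene of CD45 and the congenic marker of such chimeras, had 739 and 275 CPM in the IL9R libraries, against 299.8, 327 and 298 CPM in the ARG1 libraries. The mean difference in Ptprc rested on library 1, and without it the log2 fold change was -0.17 in place of 0.72.

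The 10 genes named at the upper end have the lowest unadjusted p among those whose IL9R chimera libraries both exceed every ARG1 chimera library and whose larger group mean reaches 5 CPM. None passed in edgeR (adjusted p 0.118 to 0.20), all 10 did in DESeq2, which was run on the same libraries, and values are given as measured. Spata13 (chr14:60634001-60764556), a guanine nucleotide exchange factor, had 51.5 and 21.2 CPM in the IL9R libraries, against 8.37, 6.61 and 10.0 CPM in the ARG1 libraries (log2 fold change 2.13, SE 0.39). Ppp1r15a (GADD34), which directs a phosphatase to eIF2alpha in the stress response, had 1061 and 515 CPM in IL9R chimeras, against 357, 287 and 300.0 CPM in ARG1 chimeras (1.33, SE 0.26). Library 1 had the highest value of both genes and library 2 lay between it and the ARG1 chimera libraries.

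Birc3 (cIAP2), a ubiquitin ligase of the TNF receptor and NF-kB pathway, had 144 and 90.7 CPM in the IL9R libraries, against 57.1, 55.5 and 65.3 CPM in the ARG1 libraries (log2 fold change 0.99, SE 0.20). Arid5a, a protein that binds and stabilizes Il6 mRNA, had 280.4 and 129.6 CPM in IL9R chimeras, against 93.4, 74.1 and 77.9 CPM in ARG1 chimeras (1.33, SE 0.29). Cyp4f18, an oxidase of leukotriene B4, had 328 and 410.0 CPM in IL9R chimeras, against 160.3, 142 and 169 CPM in ARG1 chimeras (1.23, SE 0.25). N4bp2l1 (chr5:150571644-150597188) was the most even of the 10, with 24.0 and 22.3 CPM in the IL9R libraries, against 8.10, 11.4 and 11.4 CPM in the ARG1 libraries (1.17, SE 0.24). Cyp4f18 and Tob2, an antiproliferative protein of the BTG/Tob family, were the 2 of the 10 in which library 2 exceeded library 1. The other members were Ifrd1, a transcriptional co-regulator (log2 fold change 1.27), Hmha1 (0.93), and Rassf5, an effector of Rap1 in adhesion (0.93). Tob2 had a log2 fold change of 0.78.

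**Figure D1:**
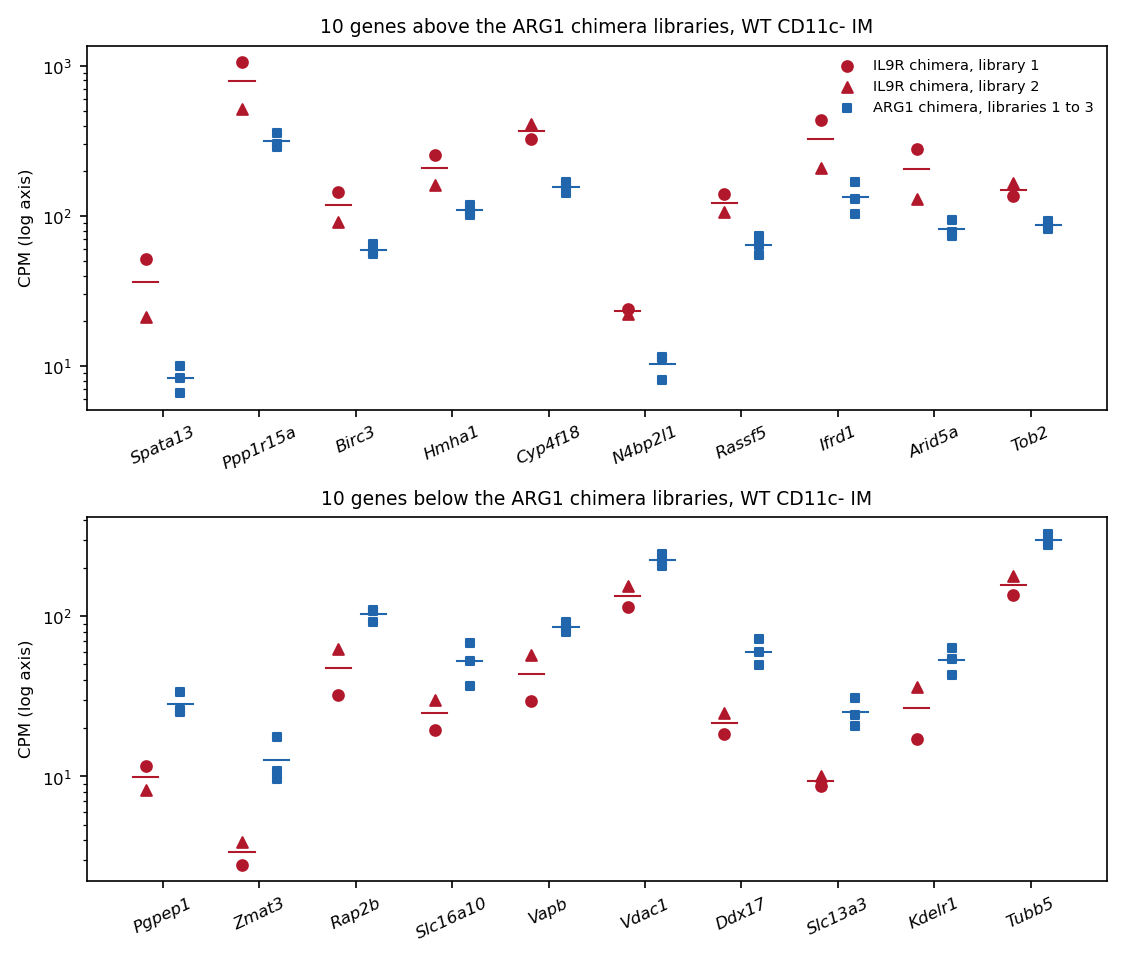
CPM on a log axis in each WT CD11c- library of the 20 named genes, IL9R chimera libraries in red (circle library 1, triangle library 2) left of the 3 ARG1 chimera libraries in blue, with a bar at each mean. In each gene the groups do not overlap, as the choice of the genes required, and library 1 lies farther from the ARG1 chimera libraries than library 2 in 8 of the 10 upper and 9 of the 10 lower genes.

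Of the 10 genes named by the same rule at the lower end none passed in edgeR (adjusted p 0.128 to 0.30), while all 10 passed in DESeq2. Pgpep1 (chr8:70646435-70660388), a peptidase that removes N-terminal pyroglutamate, had 11.7 and 8.28 CPM in IL9R chimeras, against 25.2, 26.1 and 33.6 CPM in ARG1 chimeras (log2 fold change -1.50, SE 0.28). Zmat3, an RNA-binding target of p53, had 2.82 and 3.91 CPM in the IL9R libraries, against 10.8, 9.62 and 17.6 CPM in the ARG1 libraries (-1.91, SE 0.41). In both genes the 2 IL9R chimera libraries lay nearer to each other than to any ARG1 chimera library. Ddx17, an RNA helicase, had 18.4 and 24.7 CPM in IL9R chimeras, against 71.9, 49.3 and 59.4 CPM in ARG1 chimeras (-1.48, SE 0.37). Vdac1, the main channel of the mitochondrial outer membrane, had 115 and 154 CPM in IL9R chimeras, against 245, 219 and 205 CPM in ARG1 chimeras (-0.73, SE 0.18). Slc13a3, a carrier of dicarboxylates such as succinate (-1.43), and Slc16a10, a carrier of aromatic amino acids (-1.09), belonged to the same 10, as did the small GTPase Rap2b (-1.13), the ER tether Vapb (-0.98), the ER retrieval receptor Kdelr1 (-1.01) and the beta tubulin Tubb5 (-0.93).

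Genes of inflammatory cytokines and NF-kB feedback, a list of 27 that were all tested, had a median log2 fold change of 0.62, against 0.02 over all genes, and 24 of 27 were positive. Of the 27, 9 were at an unadjusted p under 0.05, all higher in IL9R chimeras (4.93% of all genes were), and edgeR called 0. Libraries 1 and 2 differed: the median difference from the ARG1 chimera mean was 1.11 log2 units in library 1 and 0.05 in library 2. Rel (c-Rel), an NF-kB subunit, had 70.0 and 24.1 CPM in IL9R chimeras, against 23.2, 14.1 and 13.5 CPM in ARG1 chimeras (log2 fold change 1.47, SE 0.33). Il1a, the gene of the cytokine IL-1alpha, had 837 and 242 CPM in the IL9R libraries, against 250.4, 65.1 and 134 CPM in the ARG1 libraries (1.85), so that library 2 overlapped with the ARG1 range. Trem1, an amplifier of inflammatory signaling on myeloid cells, had 319 and 190.3 CPM in IL9R chimeras, against 109.7, 63.7 and 107 CPM in ARG1 chimeras (1.45). Il6 had 65.4 and 52.1 CPM in IL9R chimeras, against 35.3, 9.69 and 30.8 CPM in ARG1 chimeras (1.22), again without overlap. Tnfaip3 (A20), an inhibitor of NF-kB that NF-kB itself induces, had 1341 CPM in library 1 and 445 CPM in library 2, the second inside the ARG1 range of 342 to 485 CPM. Without library 1 the list's median was 0.04 with 1 gene higher and 2 lower at an unadjusted p under 0.05, and without library 2 it was 1.06 with 13 higher, 3 of them at an edgeR adjusted p under 0.05.

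The promoters of Rel and Tnfaip3 are shown because both genes belong to that list and hold a kB-like motif, the DNA pattern to which NF-kB subunits are known to bind. The 250 bases before each start site come from RefSeq (GRCm38.p6, first start listed per symbol) and are written 5′ to 3′ on the gene's strand, with matches of GGG, any 2 bases, TT, any base and CC on either strand in capitals, overlapping matches merged.
Rel, chr11:23770970-23771219, minus strand: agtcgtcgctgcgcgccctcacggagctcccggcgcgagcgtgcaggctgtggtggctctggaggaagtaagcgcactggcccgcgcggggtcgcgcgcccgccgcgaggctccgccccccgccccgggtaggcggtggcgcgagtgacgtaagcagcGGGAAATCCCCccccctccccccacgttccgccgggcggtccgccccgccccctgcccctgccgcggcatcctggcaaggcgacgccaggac
Tnfaip3, chr10:19015411-19015660, minus strand: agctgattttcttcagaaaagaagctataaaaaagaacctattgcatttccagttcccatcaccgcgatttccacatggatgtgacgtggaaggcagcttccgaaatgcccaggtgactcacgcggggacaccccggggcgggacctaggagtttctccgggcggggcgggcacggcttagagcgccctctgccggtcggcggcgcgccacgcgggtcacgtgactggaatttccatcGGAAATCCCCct
A match stood in 7 of the 20 list genes with a promoter in the table (35%), and in 475 of 10243 promoters of all genes tested (4.64%). The list was chosen as genes of NF-kB feedback, so a higher share comes with that choice and not from the levels measured here. A match describes the letters and is no evidence of binding in these cells.

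Interferon-gamma-induced GTPases and CXCR3 ligands had 16 of 17 tested genes positive, with a median log2 fold change of 0.70, and 4 were higher at an unadjusted p under 0.05 (4.93% of all genes were) with 0 called by edgeR. Without library 1 the median was 0.0010, with 9 of 17 positive and 1 higher at that level. Irf1, an interferon-induced transcription factor, had 188 and 182 CPM in IL9R chimeras, against 133, 73.4 and 95.1 CPM in ARG1 chimeras (log2 fold change 0.88), and both libraries shared in it. Gbp4, Gbp3 and Gbp2, guanylate-binding GTPases, had log2 fold changes of 1.59, 0.81 and 0.70. For the list as a whole the median difference was 0.97 in library 1 and 0.16 in library 2. MHC class II presentation had a median of 0.52 over 16 genes, 1.06 in library 1 and 0.20 in library 2, and 0.06 without library 1. H2-Ab1, an MHC class II chain, had 4320 and 1946 CPM in the IL9R libraries, against 1414, 1249 and 2203 CPM in the ARG1 libraries. H2 genes share sequence, so that reads may have been split or lost in counting. The general interferon response list, with 19 of 36 genes positive, had a median of 0.02, the value over all genes.

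Clock genes were the list in which the 2 libraries were most alike among those with a median over 0.5. Of 18 tested clock genes 16 were positive, the median log2 fold change was 0.63, and the median difference from the ARG1 chimera mean was 0.59 in library 1 and 0.50 in library 2. Both IL9R chimera libraries exceeded every ARG1 chimera library in 8 of the 18, against 13.5% of all genes, and edgeR called 0. The 2 of 18 at an unadjusted p under 0.05 are a share near the 8.94% of all genes. The hour of tissue collection is not given in the sources used here, so that a difference in hour between the 2 sets of mice cannot be told apart from one between chimera kinds. Tef, an output activator of the clock, had 33.5 and 35.6 CPM in IL9R chimeras, against 12.2, 19.2 and 18.2 CPM in ARG1 chimeras (log2 fold change 1.06, SE 0.37, unadjusted p = 0.010). Cry1, a repressor of CLOCK and BMAL1, had 28.7 and 25.7 CPM in the IL9R libraries, against 12.7, 15.3 and 15.7 CPM in the ARG1 libraries (0.90, SE 0.35, unadjusted p = 0.019). Per2, another repressor, had 7.09 and 8.51 CPM in IL9R chimeras, against 4.05, 1.68 and 2.62 CPM in ARG1 chimeras (1.49). Arntl (BMAL1), the activator itself, had 16.0 and 18.3 CPM in IL9R chimeras, against 5.74, 14.4 and 7.14 CPM in ARG1 chimeras (0.91). Neither Per2 nor Arntl was at an unadjusted p under 0.05.

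The promoters of Tef and Cry1 are shown because these are the 2 clock genes at an unadjusted p under 0.05 and each holds an E-box, CACGTG, the element that CLOCK and BMAL1 are known to bind. They are written as above, with the E-box in capitals.
Tef, chr15:81802423-81802672, plus strand: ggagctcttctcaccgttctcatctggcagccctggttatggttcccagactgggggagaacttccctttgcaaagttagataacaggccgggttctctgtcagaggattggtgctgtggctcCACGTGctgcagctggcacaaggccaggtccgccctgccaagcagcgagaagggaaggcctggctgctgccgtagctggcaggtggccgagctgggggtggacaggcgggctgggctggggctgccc
Cry1, chr10:85185055-85185304, minus strand: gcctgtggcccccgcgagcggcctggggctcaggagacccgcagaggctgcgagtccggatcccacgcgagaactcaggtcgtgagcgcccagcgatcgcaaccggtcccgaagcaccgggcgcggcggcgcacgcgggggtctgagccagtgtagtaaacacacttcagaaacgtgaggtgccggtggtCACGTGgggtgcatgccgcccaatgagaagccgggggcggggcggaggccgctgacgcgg
An E-box, which reads the same on both strands, stood in 5 of the 15 clock genes with a promoter (33.3%) and in 859 of 10243 promoters of all genes tested (8.39%). The motif is a description here too, and its share comes with the choice of clock genes and not from the levels measured here.

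**Figure D2:**
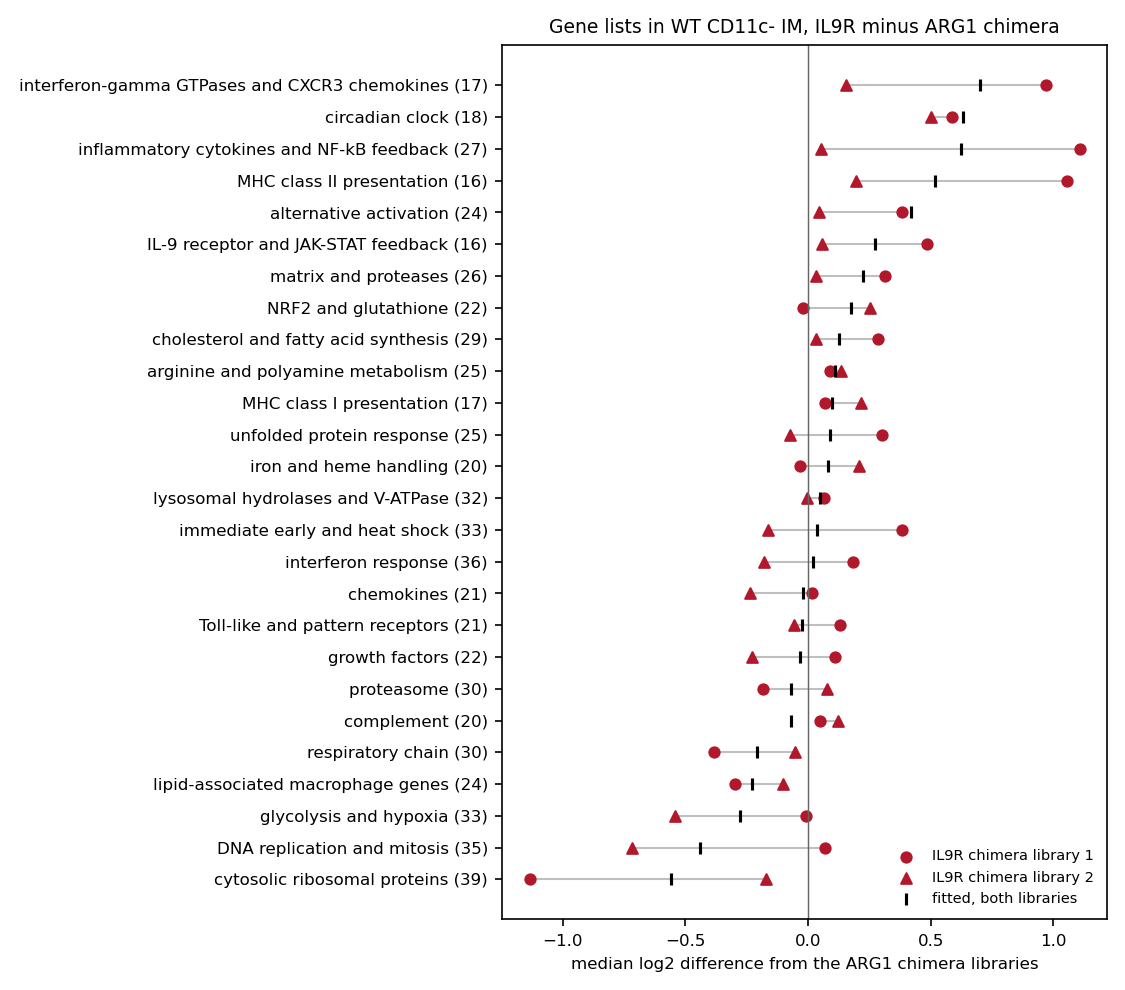
Median log2 difference from the ARG1 chimera libraries over the tested genes of each list (their number in brackets), for IL9R chimera library 1 (circle), library 2 (triangle) and the fit of both (bar). The triangles of the inflammatory (0.05) and MHC class II (0.20) lists lie near 0 where the circles reach 1.11 and 1.06, while the clock list has 0.59 and 0.50.

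Of 33 genes of glycolysis and hypoxia 23 were negative, the median log2 fold change was -0.28, and both IL9R chimera libraries lay below every ARG1 chimera library in 12 of the 33, against 12.2% of all genes. At an unadjusted p under 0.05 there were 6 lower (4.01% of all genes were) and 2 higher (4.93% of all genes were), with 0 called by edgeR. The 2 higher are a share near that of all genes. Gapdh had 2163 and 3045 CPM in IL9R chimeras, against 5064, 3826 and 4297 CPM in ARG1 chimeras (log2 fold change -0.76). Pgk1, the phosphoglycerate kinase, had 327 and 260.3 CPM in the IL9R libraries, against 526, 473 and 439.8 CPM in the ARG1 libraries (-0.71). Mif, a cytokine-like tautomerase that the hypoxia response induces, had 222 and 259 CPM in IL9R chimeras, against 578, 427 and 549 CPM in ARG1 chimeras (-1.11). These genes separated in both libraries, but the list median did not: it was -0.01 in library 1 and -0.54 in library 2. Without library 1 the fitted median was -0.58 with 0 higher and 6 lower at an unadjusted p under 0.05, and without library 2 it was -0.03 with 7 higher and 4 lower and 15 of 33 positive. The 2 genes on the other side were Pfkfb3, which makes the activator of phosphofructokinase (0.52), and Hif1a, the oxygen-regulated transcription factor (0.73). Gapdh and many of these genes have processed pseudogenes, and how reads that match several places were counted is not given in the sources used here.

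Cytosolic ribosomal protein genes had 38 of 39 tested members negative, Rpl30 being the exception, with a median log2 fold change of -0.56. Of them 12 were lower at an unadjusted p under 0.05 (4.01% of all genes were), and edgeR called 0. The list lay mainly in library 1, with a median difference of -1.13, and -0.17 in library 2. Without library 1 the fitted median was -0.18, and without library 2 it was -1.16. Respiratory chain genes had 24 of 30 negative and a median of -0.21 (-0.38 in library 1 and -0.05 in library 2). DNA replication and mitosis showed the other pattern: the list median of -0.44 over 35 genes came to 0.07 in library 1 and -0.72 in library 2. Kif18b, a mitotic kinesin outside that list that was singled out after its values were seen, had no read in either IL9R chimera library, against 120, 128 and 183 reads in the ARG1 chimera libraries, at least 53.9-fold lower when the floor is 3 counts per library. In the CD11c- libraries labelled Il9r KO of the same chimeras it had 25 to 172 reads. Such floors and lower bounds cover counting error only. In bulk samples, fewer cells of a type and less RNA per cell cannot be told apart.

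**Figure D3:**
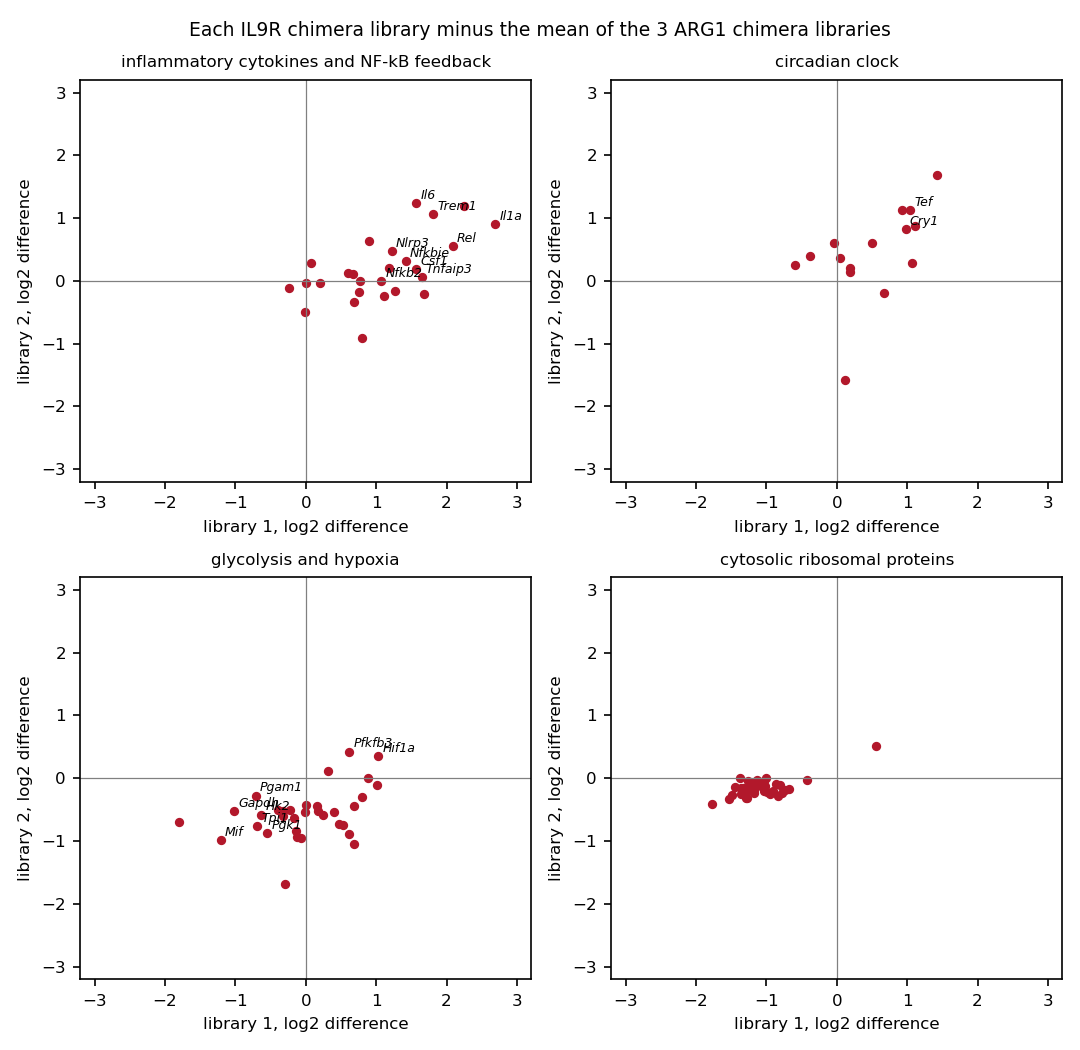
Difference from the mean of the 3 ARG1 chimera libraries in log2 CPM, library 1 on the horizontal and library 2 on the vertical axis, for the members of 4 lists whose mean reaches 1 CPM in a group; names mark genes at an unadjusted p under 0.05 (left out for ribosomal proteins). Inflammatory genes spread to the right, ribosomal protein genes to the left near 0 on the vertical axis, clock genes mostly into the upper right, and Gapdh, Pgk1 and Mif into the lower left.

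Genes of antioxidant defense included 5 of 22 that were higher in IL9R chimeras at an unadjusted p under 0.05 (4.93% of all genes were) and none lower, with a list median of 0.17. The median was -0.02 in library 1 and 0.25 in library 2, and without library 2 the fitted median was -0.05 with 5 higher and 2 lower. Gsr, glutathione reductase, had 164 and 240.2 CPM in IL9R chimeras, against 106, 66.6 and 86.5 CPM in ARG1 chimeras (log2 fold change 1.23, SE 0.35, edgeR adjusted p = 0.36). Gclc, which limits glutathione synthesis (0.85), Slc7a11, the cystine importer (0.90), Mgst1, a microsomal glutathione transferase (0.94), and Srxn1, sulfiredoxin (0.65), were the other 4. The list of cholesterol and fatty acid synthesis had 5 of 29 higher at that level and a median of 0.13. Without library 1 its median was -0.0022 with 14 of 29 positive. Among the 5 was Cyp51, a sterol demethylase, with 40.3 and 17.3 CPM in IL9R chimeras, against 11.4, 11.6 and 11.3 CPM in ARG1 chimeras (1.33). In both lists edgeR called 0. Arginine and polyamine metabolism, the pathway of Arg1, had 15 of 25 genes positive and a median of 0.11. At an unadjusted p under 0.05 there was 1 gene of the 25 (8.94% of all genes were). That gene was Gatm (0.55), which transfers the amidino group of arginine to glycine in creatine synthesis. Of the genes of IL-9 receptor signaling, 1 of 16 was at that level (8.94% of all genes were). Neither count exceeds the share over all genes. Without library 1 the fitted list medians were 0.13 for arginine and polyamine metabolism and 0.04 for IL-9 receptor signaling, the latter 0.27 with both libraries. The 1 of 16 was Jak1, with 417 and 217 CPM in IL9R chimeras, against 199, 236 and 166 CPM in ARG1 chimeras (0.66). Library 1 lay above the ARG1 chimera libraries for Jak1 and library 2 among them. The 13 pathway lists not described had median log2 fold changes from -0.23 (lipid-associated macrophage genes) to 0.42 (alternative activation), with 0 calls by edgeR, apart from short lists of sex chromosome and substrain genes.

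Genes of other cell types were measured to describe the sort. All 14 tested neutrophil markers were positive, with a median log2 fold change of 0.93, and they summed to 649.7 and 813.3 CPM in the IL9R chimera libraries, against 305.5 to 438.9 CPM in the ARG1 chimera libraries. Il1r2, the decoy receptor for IL-1, had 71.7 and 85.8 CPM in IL9R chimeras, against 11.0, 8.29 and 19.4 CPM in ARG1 chimeras (log2 fold change 2.61, unadjusted p = 0.0041, edgeR adjusted p = 0.42). The neutrophil markers S100a8 and S100a9 overlapped between the groups. S100a8 had 54.0 and 166 CPM in IL9R chimeras, against 75.0, 25.8 and 87.6 CPM in ARG1 chimeras. Ly6g, Mpo and Elane were not among the genes tested. Of 17 monocyte markers 5 were higher at an unadjusted p under 0.05 (Treml4, Itgal, Ace, Nr4a1 and Hp; 4.93% of all genes were), but 0 were higher and 2 lower without library 1. The list summed to 8089 and 5449 CPM in IL9R chimeras, against 4547 to 6465 CPM in ARG1 chimeras. Dendritic cell markers summed to 451.9 and 380.3 CPM in IL9R chimeras, against 354.2 to 401.7 CPM in ARG1 chimeras. Their median log2 fold change was 1.56 with 13 of 17 positive, and the median difference was 2.18 in library 1 and 0 in library 2. At an unadjusted p under 0.05 in edgeR, 3 were higher (4.93% of all genes were) and 0 lower. B16 melanoma genes summed to 122.0 and 180.1 CPM in IL9R chimeras, against 113.3 to 189.3 CPM in ARG1 chimeras, and epithelial genes to 200.1 and 210.7 CPM in IL9R chimeras, against 81.7 to 146.8 CPM in ARG1 chimeras. Mast cell, basophil and eosinophil genes summed to 66.0 and 31.5 CPM in IL9R chimeras, against 18.0 to 25.6 CPM in ARG1 chimeras, and fibroblast and smooth muscle genes to 17.8 and 13.7 CPM in IL9R chimeras, against 5.93 to 11.6 CPM in ARG1 chimeras. Endothelial genes summed to 101.1 and 53.3 CPM in IL9R chimeras, against 66.5 to 80.2 CPM in ARG1 chimeras, and B and plasma cell genes to 37.8 and 32.1 CPM in IL9R chimeras, against 30.0 to 46.6 CPM in ARG1 chimeras. Erythroid and platelet genes summed to 726.0 and 2111 CPM in IL9R chimeras, against 1233 to 2044 CPM in ARG1 chimeras. T and NK cell genes summed to 51.8 and 32.9 CPM in IL9R chimeras, against 42.7 to 57.4 CPM in ARG1 chimeras. Both IL9R libraries exceeded every ARG1 library in the sums of neutrophil, epithelial, fibroblast and mast cell lists. The part of these cells, of monocytes and of dendritic cells in the differences above was not tested. Among 21 genes of macrophage identity 8 were positive and 13 negative. The median was -0.14, with -0.34 in library 1 and 0.0053 in library 2. At an unadjusted p under 0.05, 1 was higher (4.93% of all genes were) and 1 lower (4.01% of all genes were). Maf, a transcription factor of resident macrophages, had 46.7 and 95.6 CPM in IL9R chimeras, against 256, 192 and 262 CPM in ARG1 chimeras (log2 fold change -1.74, adjusted p = 0.38 in edgeR). Csf1r, in the same list, was higher in both IL9R libraries than in every ARG1 library.

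The same contrast in other sorted cells rests on other libraries, though they may come from the same mice. These libraries also entered the shared estimate of the spread behind the p-values that ranked the genes. Their p-values are therefore not independent of the choice of the genes. In WT CD11c+ cells (2 IL9R and 3 ARG1 chimera libraries) edgeR called 0 genes, 1303 were at an unadjusted p under 0.05 (9.7%), and DESeq2 called 63. In knockout CD11c- cells, the libraries labelled Il9r KO were set against those labelled Arg1 CKO (3 each), a comparison in which genotype differs too. Those labelled Il9r KO held all but 5 of the Il9r reads of these cells. There edgeR called 5 genes (0.0372%) and 784 were at an unadjusted p under 0.05 (5.84%). The 5 were Wdfy1 (log2 fold change 3.31), Fn3krp (4.88) and Lyz2 (1.64), higher in the libraries labelled Il9r KO, and Dynlt1b (-5.57) and G530011O06Rik (-3.94), lower, and in WT CD11c- cells the same genes had 0.38, 0.74, -0.15, -0.20 and -0.95. Lyz2 and Dynlt1b have near-identical copies that may share their reads. All 10 named upper genes were positive in both, 6 of the 10 at an unadjusted p under 0.05 in WT CD11c+ cells and 9 of the 10 in knockout CD11c- cells. Spata13 had log2 fold changes of 1.55 (SE 0.38) in WT CD11c+ cells and 1.63 (SE 0.36) in knockout CD11c- cells. Of the 10 lower genes 9 and 10 were negative, but 2 were at an unadjusted p under 0.05 in each. Zmat3 had a log2 fold change of -0.0047 in WT CD11c+ cells, and Slc16a10, at 0.17 there, was the exception in sign. Over all 1201 genes at an unadjusted p under 0.05, 81.2% had the same sign in WT CD11c+ cells and 86.7% in knockout CD11c- cells, against 61.4% and 64.8% of all genes tested. The libraries may not be independent of each other. Across 8019 genes, WT and KO CD11c- libraries of the IL9R chimeras with the same number deviated together from their group means (r = 0.370 for number 1 and 0.473 for number 2). With only 2 WT libraries, their deviations are mirror images, so the 2 values are not separate results. Genes are not replicates, and whether same-numbered libraries share a mouse was not tested. A test of whether the chimera effect differs between WT CD11c- and WT CD11c+ cells called 0 genes in edgeR, with 490 at an unadjusted p under 0.05 (3.65%) and 15 called by DESeq2.

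**Figure D4:**
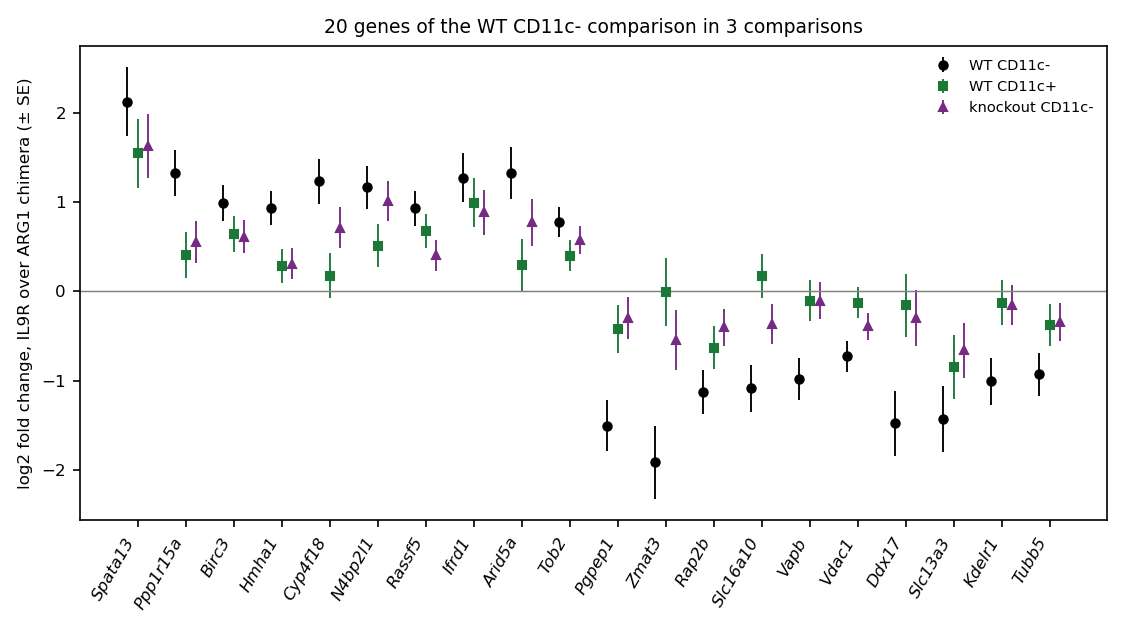
Log2 fold change of IL9R over ARG1 chimera with its SE for the 20 named genes, in WT CD11c- (black), WT CD11c+ (green) and knockout CD11c- (purple) cells. The 10 upper genes lie above 0 in each comparison, while several of the lower genes lie nearer to 0 outside WT CD11c- cells, as Zmat3 does at -0.0047 in WT CD11c+ cells.

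A set of 12 genes had all 10 IL9R chimera tumor libraries above all 11 ARG1 chimera tumor libraries (0.0893% of genes tested), and 8 had all 10 below all 11 (0.0596%), a count made after the values were seen and over both subsets and genotypes. Il6 ran from 44.1 to 110.9 CPM (median 64.0) in IL9R chimeras, against 9.69 to 36.5 CPM (median 18.9) in ARG1 chimeras. Nr4a2, an orphan nuclear receptor that is an early response gene, ran from 77.5 to 186.4 CPM (median 99.3) in IL9R chimeras, against 14.1 to 60.6 CPM (median 40.1) in ARG1 chimeras. Rel was at 24.1 to 70.0 CPM in IL9R chimeras, against 9.20 to 23.2 CPM in ARG1 chimeras, a narrow gap that WT CD11c- cells set on both sides. Ripk2 and Peli1, a kinase and a ubiquitin ligase of pattern-receptor signaling, belonged to the same 12, as did Skil, an inhibitor of SMAD signaling, Alox5, the lipoxygenase that starts leukotriene synthesis, Wsb1, Mylip, Arrdc4, Ifrd1 and N4bp2l1. Alox5 ran from 34.1 to 199.4 CPM in IL9R chimeras, against 10.3 to 33.9 CPM in ARG1 chimeras. Among the 8 in the other direction, the glycolytic enzyme Aldoa ran from 1402 to 2196 CPM in IL9R chimeras, against 2260 to 3905 CPM in ARG1 chimeras. Nr1h3, the oxysterol receptor LXRalpha, ran from 57.5 to 105.1 CPM in IL9R chimeras, against 110.6 to 204.4 CPM in ARG1 chimeras. The other 6 were Med28, Mrpl17, Ostc, Trappc2l, A430005L14Rik and AI413582. Libraries of different subsets and genotypes may share a mouse, so that the 21 libraries cannot be counted as 21 replicates.

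**Figure D5:**
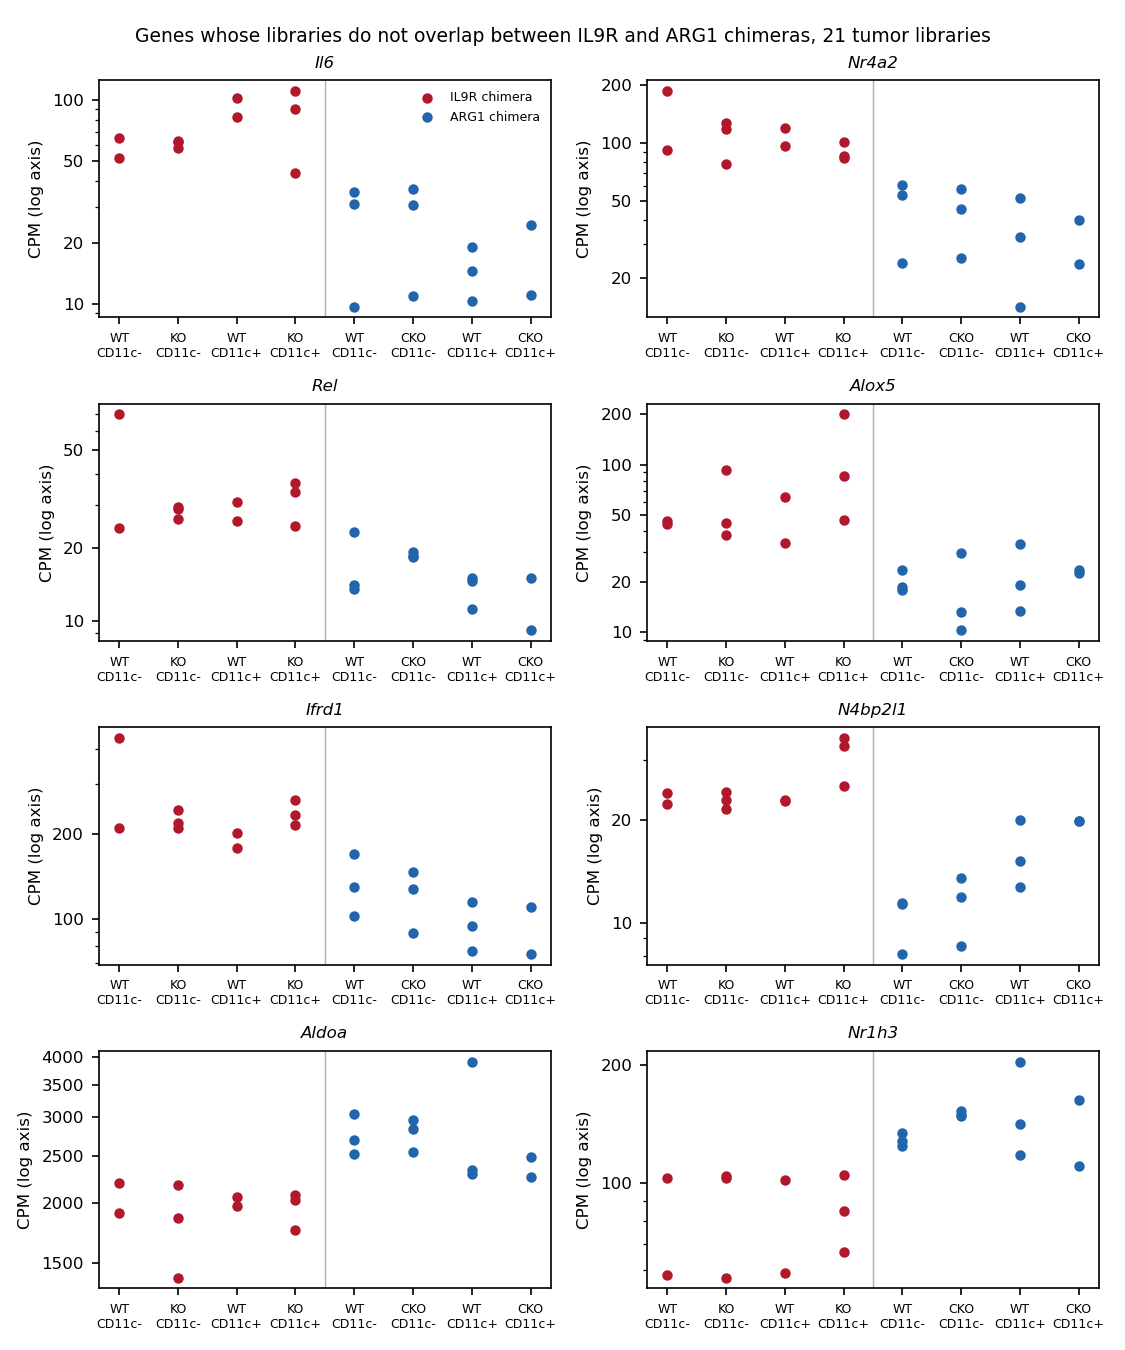
CPM on a log axis in each of the 21 tumor libraries for 8 of the 20 genes that separate the chimera kinds, IL9R chimera groups in red left of ARG1 chimera groups in blue (KO, labelled Il9r knockout; CKO, labelled Arg1 conditional knockout). In Il6 the IL9R chimera libraries sit between 44.1 and 110.9 CPM, all above the ARG1 chimera libraries at 9.69 to 36.5 CPM, and in Aldoa all lie below.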

How the data were processed

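PolyA RNA of sorted lung macrophages was sequenced with the SMART-seq v4 and Nextera XT protocols after QIAGEN micro kit extraction, per the labels' protocols. The authors deposited raw read counts per gene. Per the submitters' processing notes, FastQC 0.11.5, STAR 2.7.10a, featureCounts of Subread 2.0.3 and build mm10 were used. The annotation, strand setting and filter behind the 13482 genes are not given in the sources used here. The table pairs each symbol with an Entrez identifier, and the pair named the same RefSeq gene in 271 of 12853 rows whose identifier was found (2.11%). Genes were taken by symbol, under which macrophage genes such as Csf1r are high, so every value rests on the symbol column being right. Positions are from GENCODE. All 21 tumor libraries were fitted together in edgeR 4.0.16 (R 4.3.3; TMM, filterByExpr, robust quasi-likelihood, 8 groups, 13 residual degrees of freedom), which left 13434 genes. P-values are two-sided and adjusted by Benjamini-Hochberg over all genes. Alternatives used DESeq2 1.42.0 and limma 3.58.1. Log2 CPM used a prior count of 2, and a floor of 3 counts stood for 0. Fits were tested on simulated data with less spread between libraries than these data have. That does not show what share of true changes the fit would find here. Named genes were Arg1, Il9r, Itgax, Ptprc and, as no gene passed, the 10 in each direction with the lowest unadjusted p, at least 5 CPM and groups that do not overlap, model names left out. The members, the 41 lists (13 of markers) and these rules were chosen with earlier results of these data known. All 41 lists were summarised by counts and medians, without a test of the list.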

Additional observations from a re-analysis of the deposited data

How the results depend on the processing

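In WT CD11c- cells edgeR called 0 genes with RLE size factors, with no filter, with genes of 5 CPM or more on average, with the contrasted groups alone, without the CD11c+ Il9r KO library numbered 3, and with the label number as a replicate block (0 calls and 1484 at an unadjusted p under 0.05). DESeq2 called 68 genes there, 63 in WT CD11c+ cells, 44 in knockout CD11c- cells (main count 5) and 15 for the difference between subsets. With the contrasted groups alone, WT CD11c+ cells had 2 calls, and with the replicate block knockout CD11c- cells had 12. The block changed no other count of calls past 0, and the cause was not tested. Limma voom called 0 genes in WT CD11c- cells with and without a random block of chimera kind by number. Leaving out 1 library at a time gave 0 to 67 calls in WT CD11c- cells (67 without IL9R library 2), 0 in WT CD11c+ cells and for the difference between subsets, and 3 to 12 in knockout CD11c- cells. Label numbers were not taken as pairs. Same-numbered IL9R and ARG1 libraries shared 2 numbers and their deviations correlated at -0.17 and -0.28. Same-numbered WT and KO libraries of the IL9R chimeras correlated at 0.370 and 0.473. As the 2 IL9R WT libraries deviate as mirror images, the 2 values of each kind are not separate results. The edgeR log2 fold change of Arg1 (main -0.28) was -0.61 with the replicate block and -0.50 to -0.04 with 1 library left out, and its exact-test difference in mean log2 CPM was -0.25 without TMM scaling and -0.46 to -0.04 with 1 library left out. Ptprc ran from -0.17 (without IL9R library 1) to 1.26 (without IL9R library 2). The other 22 named genes with reads kept their sign in all 14 alternatives. At 37442893 counts or more per library, depth limits mainly genes with few reads.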

Other observations

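Some genes had, in WT CD11c- cells, 0 reads in every library of 1 chimera kind and at least 10 in each of the other. Of the 13434 genes tested, 9 were such genes with 0 reads in the IL9R chimera libraries and 15 with 0 reads in the ARG1 chimera libraries. Of the 15, 5 had no read in the 3 Arg1 CKO libraries of CD11c- cells either. All 9 had reads in at least 1 of the CD11c- libraries labelled Il9r KO. Ocln, a tight junction protein, had 21 and 28 reads in IL9R chimeras, against 0, 0 and 0 in ARG1 chimeras. Ehd3 had 0 and 0 reads in IL9R chimeras, against 42, 27 and 60 in ARG1 chimeras, at least 16.2-fold lower with a floor of 3 counts per library. In the CD11c- libraries labelled Il9r KO, Ehd3 had 28 to 40 reads. All of these genes were chosen after their values were seen.

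Xist, the RNA of the inactive X chromosome, had 6.73 and 23.4 CPM in IL9R chimeras, against 27.1, 40.2 and 34.6 CPM in ARG1 chimeras (log2 fold change -1.17, unadjusted p = 0.0048, edgeR adjusted p = 0.43), and library 1 was the lowest of the 5.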
